A study of Mus musculus with 6 samples.

Results

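The Bcl2 family decides whether the mitochondrial route of programmed cell death is opened. Its 10 members followed here were taken by gene symbol from a table of 23281 genes: the anti-apoptotic genes Mcl1, Bcl2l1 and Bcl2, the effectors Bax, Bak1 and Bok, and the BH3-only genes Bcl2l11, Bid, Bad and Bmf. Effector proteins make pores in the outer mitochondrial membrane that release cytochrome c, anti-apoptotic proteins bind and hold them, and BH3-only proteins relieve that hold or activate the effectors directly. MCL1 protein is known for rapid turnover, and mouse embryonic stem cells are known as cells primed for this form of death.

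The RNA came from nuclei of female mouse embryonic stem cells on a 129S X Cast background, grown in ES medium, in which a TetOn promoter replaced that of Xist on the 129S allele and a Bgl stem-loop sat in the 3' end of Xist. The titles name the line BglHalo_Xist, and the labels do not say more of its Halo part. Every culture was given 1 µg/ml doxycycline for 17.5 to 20 h and then 500 µM 4-thiouridine (4sU, a uridine analogue that marks RNA made while it is present) for 4 h. Doxycycline medium with 50 mM uridine followed for 30, 60, 90, 120 or 150 min, or was left out at 0 min, with 1 library per time, 6 in all and no replicates. No culture without doxycycline or without 4sU was analysed here.

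After alkylation, 4sU is read as T-to-C (T>C) conversions, from which the authors estimated a labelled share per gene (posterior mean, with 5% and 95% quantiles). The loss of label per h is minus the slope of the natural log of that share on washout time, and the half-life follows as ln 2 over the loss. These are losses from nuclear RNA, in which decay and export cannot be told apart. With 1 library per time, errors and p-values measure scatter of 6 libraries around a line and not a spread between cultures. In limma that scatter is pooled over genes, in some alternative fits entirely. Libraries held 18558073 to 28535162 reads. The library read as 60 min had a higher T>C rate over all genes (4.11%) than the library read as 30 min (2.69%). Its rate was also slightly above that of the library read as 0 min (4.05%). Of the 10 members, 9 carried more label at 60 min than at 30 min, against 47.1% of the genes tested. The count takes any difference in posterior means. The 5% to 95% ranges at 30 and 60 min stood apart for Mcl1, Bcl2l1, Bcl2l11 and Bid. They overlapped for Bax, Bok, Bmf, Bak1 and Bad.

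Embryonic stem cell markers were present in all libraries, 8 of 8 with reads in every one and a summed level of 2585 to 3037 CPM (library-scaled read counts, with TMM factors). Fibroblast feeder markers, which the growth protocol's pre-plating step should lower, summed to 324 to 501 CPM over 10 genes, of which only Lum had under 10 reads in every library. Their part in the member values was not tested. Fewer cells of a type and less RNA per cell cannot be told apart in bulk RNA.

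The first comparison asked how fast each family member lost its label. Of the 10 members, 9 averaged 100 reads or more and were tested. By limma's moderated test across 11462 genes with Benjamini-Hochberg adjustment, the labelled share fell for 5 of the 9 (Mcl1, Bcl2l11, Bmf, Bcl2l1 and Bid) and did not pass for 4 (Bax, Bak1, Bad and Bcl2). Over all genes tested 52.3% lost label and 1.19% gained it, so the members' count lies near the background. The members' losses spanned 0.02 to 0.94 per h with a median of 0.53 per h, beside a median of 0.25 per h over all genes. The median share of the tested genes was 46.8, 45.8 and 44.5% at 0, 30 and 60 min. It was 39.3, 27.7 and 21.1% at 90, 120 and 150 min. It thus fell little up to 60 min and more later, so a loss or half-life from 1 line averages an uneven course and depends on the times used.

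**Figure D1:**
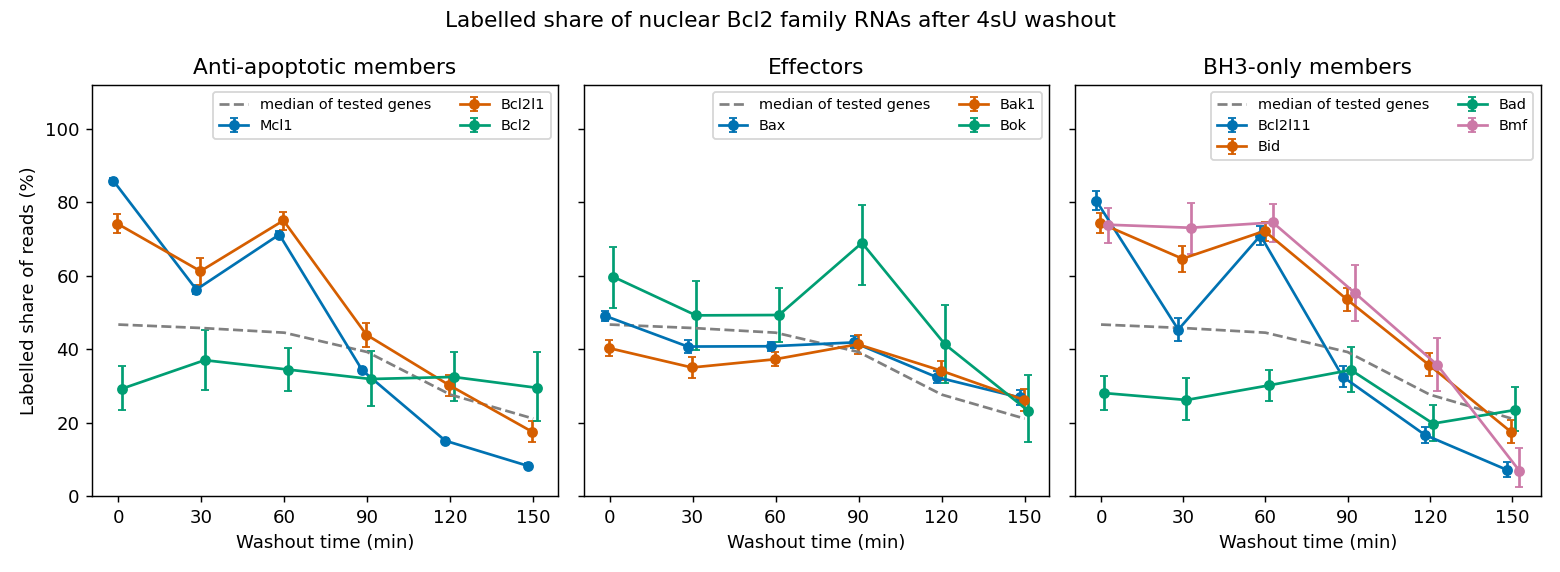
Labelled share of reads in percent (vertical axis) against washout time in min (horizontal axis) for the 10 members in 3 panels by role. Points are posterior means in 1 library each, slightly offset in time, bars run between the 5% and 95% posterior quantiles, and the dashed line is the median of the tested genes. Mcl1, Bcl2l11 and Bmf end below 10%, whereas Bcl2 stays between 29.3% and 37.1%.

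Among anti-apoptotic genes, Mcl1 (ENSMUSG00000038612; chromosome 3, 95658788 to 95663176 in mm10, plus strand, protein coding) lost its label fastest. Its labelled share was 85.9, 56.3, 71.3, 34.3, 15.1 and 8.24% at 0, 30, 60, 90, 120 and 150 min, from 6976 to 10309 reads per library. The share at 150 min (5% to 95% range 7.58 to 8.92%) lay far under that at 0 min (85.1 to 86.7%), and the order was broken between 30 and 60 min, where the later library was higher. The loss was 0.94 ± 0.12 per h by limma (SE over 6 libraries, adjusted p = 5.12e-05). The half-life was 44.4 min, and 1 SE on the loss spans 39.4 to 50.9 min. It takes the level of Mcl1 as constant. On labelled abundance (share times CPM, natural log) the slope was -0.755 ± 0.13 per h. Mcl1 stood at rank 337 from the fastest of 11462 genes.

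Bcl2l1, which encodes BCL-XL (chromosome 2, 152780668 to 152831728, minus strand), lost label more slowly. The labelled share of Bcl2l1 was 74.2, 61.3, 75.1, 44.0, 30.2 and 17.5% in time order. The first 3 libraries lay above 60% and the last 3 below 45%. Its loss was 0.56 ± 0.11 per h (limma adjusted p = 0.000361), so that the half-life was 73.7 min (62.1 to 90.7 for 1 SE on the loss).

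Bcl2, the founding member of the family (chromosome 1, 106538178 to 106714274, minus strand), had the lowest rate. Its labelled share was 29.3, 37.1, 34.5, 31.9, 32.5 and 29.5% in time order, from 82 to 178 reads per library. All 6 posterior ranges overlapped, that at 0 min being 23.4 to 35.4% and that at 150 min 20.6 to 39.2%. The loss of 0.02 ± 0.09 per h did not pass (limma adjusted p = 0.842). An annotated antisense gene, D630008O14Rik, overlaps 33103 nt of the Bcl2 span, and the sources used here do not say whether counting was by strand.

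Neither effector tested passed on the labelled share. Bax (chromosome 7, 45461697 to 45466898, minus strand) had a labelled share of 49.2, 40.8, 40.8, 41.9, 32.4 and 26.9% in time order, from 2237 to 3951 reads. The 4 libraries up to 90 min lay within 40.8 to 49.2%, and the last pair was lower. The loss of Bax, 0.21 ± 0.09 per h, missed the threshold (limma adjusted p = 0.0561). It passed on the logit scale, as labelled abundance, after exchanging the times 30 and 60 min, and when the library of 60 or 90 min was left out (limma adjusted p between 0.0238 and 0.0405). Without the 60 min library every member tested had the same SE, 0.09159 per h. That p-value thus does not rest on the scatter of Bax itself. Gm45808, a gene model on the same strand with a mean of 840.0 reads, shares 915 nt of the Bax span.

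Bak1 (chromosome 17, 27019810 to 27029009, minus strand), the other main pore former, had a labelled share of 40.4, 35.1, 37.3, 41.4, 34.2 and 26.3% in time order. Only the 150 min value stood clearly apart from the rest. Its loss of 0.12 ± 0.09 per h did not pass (limma adjusted p = 0.285). The whole Bak1 span lies inside a Ggnbp1 gene model on the opposite strand that had a mean of 623.7 reads. Bok (chromosome 1, 93685660 to 93695764, plus strand), a less studied effector relative, had 75 to 109 reads and fell under the read minimum. Its labelled share was 59.8, 49.3, 49.4, 69.0, 41.4 and 23.3% in time order, with a 5% to 95% range as wide as 57.5 to 79.4% at 90 min, and the untested loss was 0.28 ± 0.15 per h.

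The BH3-only genes split. Bcl2l11, which encodes BIM, an activator that binds all anti-apoptotic members (chromosome 2, 128126038 to 128162547, plus strand), had a labelled share of 80.5, 45.4, 71.0, 32.6, 16.7 and 7.17% in time order. As in Mcl1, the 30 min library stood below the 60 min library. Its loss was 0.91 ± 0.13 per h (limma adjusted p = 6.66e-05), and the half-life 45.9 min (40.1 to 53.6 for 1 SE on the loss).

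Bmf, a BH3-only gene linked to loss of cell attachment (chromosome 2, 118528757 to 118549687, minus strand), kept a labelled share of 73.9, 73.1 and 74.6% at 0, 30 and 60 min. It then had 55.3, 35.8 and 6.95% at 90, 120 and 150 min, the last value from 115 reads with a range of 2.56 to 13.1%. Its loss was 0.82 ± 0.17 per h (limma adjusted p = 0.00071), which is 51.0 min as a half-life. Without the 150 min library the loss was 0.35 per h (limma adjusted p = 0.0426).

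Bid, whose protein is cut by caspase-8 and carries death receptor signals to mitochondria (chromosome 6, 120891930 to 120916853, minus strand), had a labelled share of 74.4, 64.7, 72.2, 53.6, 35.8 and 17.5% in time order. The first 3 libraries all held more than 64% and the later ones less. The loss was 0.53 ± 0.11 per h (limma adjusted p = 0.000767), equal to 78.2 min as a half-life. Without the 150 min library the loss was 0.33 per h and no longer passed (adjusted p = 0.0501). The end of Bid overlaps 913 nt of Bcl2l13 on the opposite strand.

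Bad, a BH3-only protein that survival kinases switch off by phosphorylation (chromosome 19, 6941861 to 6951899, plus strand), had a labelled share of 28.1, 26.2, 30.2, 34.4, 19.8 and 23.5% in time order, from 214 to 308 reads. The values crossed each other without order, and the loss of 0.09 ± 0.10 per h did not pass (limma adjusted p = 0.456). Gpr137, a gene on the opposite strand with a mean of 249.5 reads, overlaps 620 nt of the Bad span.

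**Figure D2:**
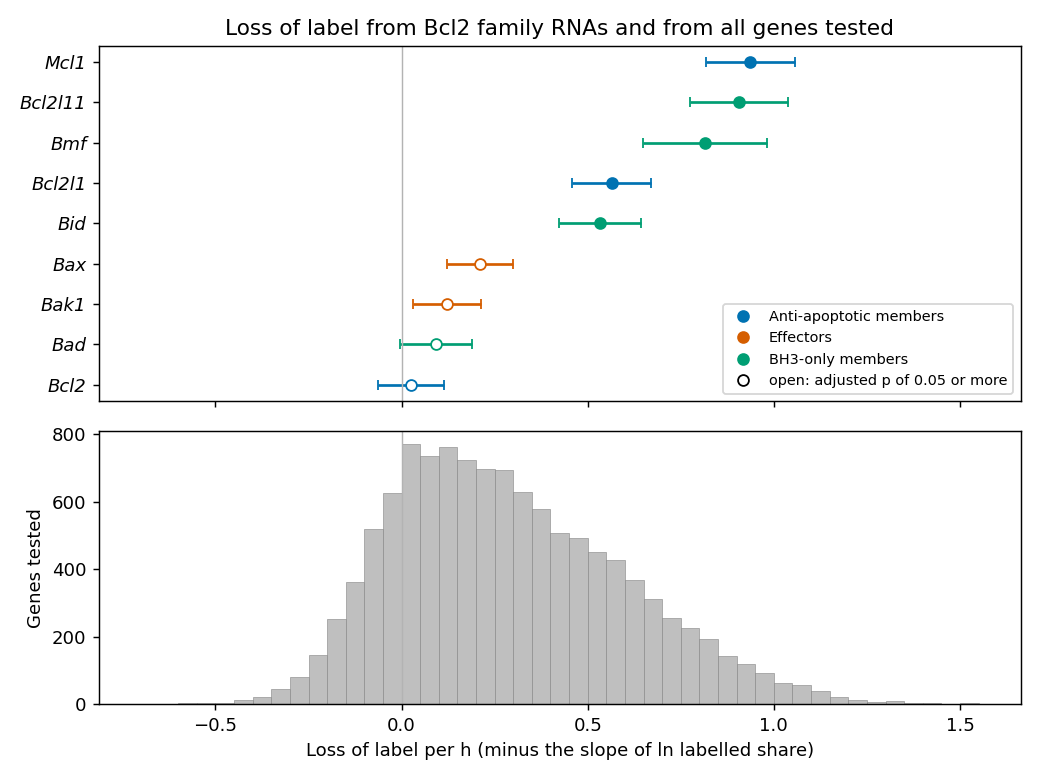
Upper panel: loss of label per h (horizontal axis) of the 9 members tested, with limma standard errors as bars, colours for the role and open points where the adjusted p was 0.05 or more. Lower panel: number of genes (vertical axis) at each loss among the 11462 genes tested. Mcl1, Bcl2l11 and Bmf lie above 0.8 per h in the right tail, and Bcl2 lies at 0.02 per h.

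In order of loss the members ran Mcl1, Bcl2l11, Bmf, Bcl2l1, Bid, Bax, Bak1, Bad and Bcl2. The order was set by these losses, so gaps between neighbours are a description with no test. From ratios in the same library, the gap was 0.32 ± 0.11 per h for Bid to Bax (SE over 6 libraries) and 0.09 ± 0.02 per h for Bax to Bak1. The gaps of the other 6 pairs were at most 1.28 SE, that of Bmf to Bcl2l1 (0.25 ± 0.20 per h). The order depended on the measure. On labelled abundance the steepest slopes were those of Bmf (-0.96 per h), Bcl2l11 (-0.83) and Mcl1 (-0.755). Bid (-0.49) then stood before Bcl2l1 (-0.48).

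The raw T>C rate, which does not depend on the authors' model of the labelled share, was compared next. The T>C rate of Mcl1 was 8.32, 3.34, 7.25, 2.19, 0.81 and 0.49% of covered T positions in time order. Bcl2l11 had 7.46, 2.88, 6.98, 2.08, 0.92 and 0.47%. Both were lowest at 150 min and had the 30 min library below the 60 min library. By limma 6 of 9 members lost conversions (background 66.9% of 11459 genes): the same 5 and Bax, whose T>C loss was 0.48 ± 0.17 per h (limma adjusted p = 0.0162). Losses were larger on this measure for every member tested, from 0.19 ± 0.16 per h for Bcl2 to 1.06 ± 0.19 for Bcl2l11 and 1.12 ± 0.19 for Mcl1. The same held for Xist (0.59 ± 0.17 per h, against 0.33 ± 0.09 on the share). No background rate was subtracted. Bak1 (limma adjusted p = 0.0547), Bad (0.124) and Bcl2 (0.276) did not pass. With the times 30 and 60 min exchanged all 9 members passed, Bak1 at a limma adjusted p of 0.000134, Bad at 0.000454 and Bcl2 at 0.0469. Bak1 also passed without the 30 or the 60 min library and at a mean of 300 reads, and Bad when that of 60 min was left out. With times exchanged every member had the same SE, 0.1097 per h. This also held without the 0 min (0.2624), the 30 min (0.1919), the 60 min (0.1217) or the 120 min library (0.2176). The p-values of these fits thus do not rest on a member's own scatter. Bax no longer passed without the 0 min (limma adjusted p = 0.0946) or the 120 min library (0.0684). Without the 150 min library only Mcl1, Bcl2l11 and Bmf passed.

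Whether a member lost label at a rate other than that of the rest of the table was tested on the ln share minus its library's median over all tested genes. By limma Mcl1 lost label faster than the median gene by 0.62 ± 0.09 per h (adjusted p = 0.00679). Bcl2l11 (0.59 ± 0.11, adjusted p = 0.00714), Bmf (0.49 ± 0.17, adjusted p = 0.0334), Bcl2l1 (0.24 ± 0.07, adjusted p = 0.0187) and Bid (0.21 ± 0.07, adjusted p = 0.0354) were faster as well. Bcl2 (slope of 0.30 ± 0.06 per h relative to the median gene, adjusted p = 0.00829), Bad (0.23 ± 0.07, adjusted p = 0.0219) and Bak1 (0.20 ± 0.06, adjusted p = 0.0217) were slower, and Bax did not differ by this test (adjusted p = 0.135). In the background 25.2% of genes were faster and 36.9% slower. Without the 150 min library 0 genes of the table passed in either direction. The slope relative to the median gene was then -0.55 per h for Mcl1 and -0.45 for Bcl2l11, -0.19 for Bcl2l1, -0.11 for Bmf and -0.09 for Bid. It was 0.25 for Bcl2, 0.21 for Bak1 and 0.15 for Bad (limma adjusted p between 0.0862 and 0.357 for these 8). Without the 0 min library 3 members were faster, and without the 30 min library 1 was slower.

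Each other member was also set against Mcl1 in the same library. The scatter of Mcl1 is shared by every such difference, so their p-values are not independent of each other. By limma 6 of 8 lost label more slowly than Mcl1, beside 89.1% of all other genes. The difference was 0.37 ± 0.10 per h for Bcl2l1 (adjusted p = 0.00593), 0.40 ± 0.11 for Bid (adjusted p = 0.0056) and 0.73 ± 0.13 for Bax (adjusted p = 0.00105). It was 0.82 ± 0.13 for Bak1, 0.85 ± 0.12 for Bad and 0.91 ± 0.14 for Bcl2 (adjusted p = 0.00103 each). Bcl2l11 (0.03 ± 0.10, adjusted p = 0.775) and Bmf (0.12 ± 0.17, adjusted p = 0.495) were not separated from Mcl1, and Bmf was without the 150 min library (0.45 per h, adjusted p = 0.0328). Xist, the RNA the experiment was built around, lost label more slowly than Mcl1 by 0.60 ± 0.11 per h (adjusted p = 0.00109).

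Genes with the most similar course of labelled share were looked up among 7539 genes averaging 500 reads or more, by the root mean square distance of the ln share over the 6 libraries. Nearest to Mcl1 were Zfp518b (distance 0.033), Zfp276 (0.041) and Pcf11 (0.049). Nearest to Bcl2l11 were Zfand5 (0.070), Hexim1 (0.071) and Zfp142 (0.073), and nearest to Bax were Srsf7 (0.036), Golga7 (0.039) and Sgta (0.042). Zfp518b had a labelled share of 84.4% at 0 min and 8.22% at 150 min.

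Label taken up in the 4 h before washout gave a separate view, from the 0 min library alone. The half-life that yields the 0 min share at steady state was 84.9 min for Mcl1 (82.4 to 87.4 at the posterior quantiles) and 102 min for Bcl2l11 (93.7 to 110). Bid (122 min), Bcl2l1 (123 min) and Bmf (124 min) lay close together, with ranges that overlapped. Bok had 183 min, Bax 246 min and Bak1 322 min. Bcl2 (481 min, 380 to 624) and Bad (505 min, 419 to 618) had the longest values and overlapping ranges. For each of the 5 members that lost label, the value from uptake was longer than that from the washout. This was not particular to them. It was also longer for Bax (246 against 198 min), Bad (505 against 453 min) and Xist (176 against 124 min). It was shorter for Bak1 (322 against 344 min) and Bcl2 (481 against 1718 min). The washout losses of Bax, Bad, Bak1 and Bcl2 had not passed. The share of all genes with a longer value was not computed. Both values use the 0 min library.

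Total reads were compared because a half-life from a share takes levels as constant. Per kb of the deposited gene model, Bax (104 to 137 CPM per kb over the libraries, mean 121) and Mcl1 (71.9 to 128, mean 102) had the highest levels, with overlapping ranges. Bak1 followed at 19.9 to 25.4 CPM per kb. Bid (13.5 to 16.1) and Bcl2l1 (12.6 to 15.6) overlapped, as did Bad (6.55 to 8.29) and Bcl2l11 (5.79 to 8.04). Bok (2.29 to 3.50), Bmf (1.34 to 1.84) and Bcl2 (0.62 to 0.97) had the lowest levels, in that order and without overlap.

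**Figure D3:**
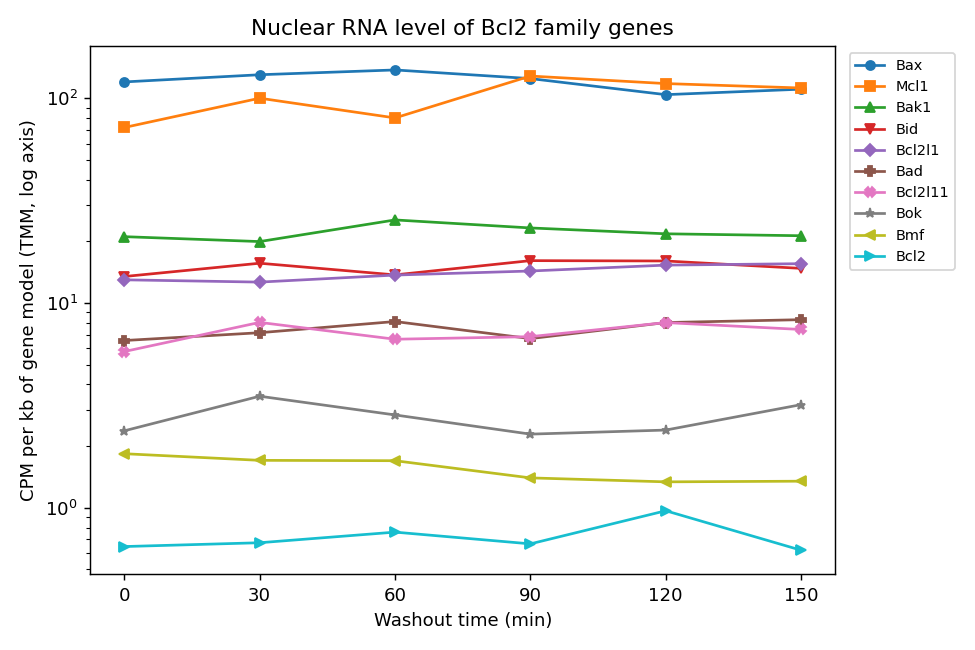
Level in CPM per kb of gene model (vertical log axis, TMM-scaled) against washout time in min (horizontal axis) for the 10 members, 1 library per point. Bax and Mcl1 lie above 70 CPM per kb and Bcl2 below 1, and the lines keep their order apart from the neighbours that cross.

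No member passed edgeR's quasi-likelihood test for a slope of total reads on time, and none passed in DESeq2. At an unadjusted p under 0.05 edgeR listed 2 members, Mcl1 and Bmf. Over the table edgeR called 0% of 15743 genes in either direction (10.2% lower and 11.5% higher at an unadjusted p under 0.05), and DESeq2 called 2.37% lower and 2.16% higher. Mcl1 had 246, 342, 274, 438, 403 and 383 CPM in time order. The 0 and 60 min libraries were the lowest, and the other 4 did not overlap them. The slope was 0.26 ± 0.09 log2 per h (edgeR adjusted p = 0.153; DESeq2 adjusted p = 0.0632). With the 30 and 60 min times exchanged it was 0.30 log2 per h and passed (edgeR adjusted p = 0.0183). Bmf had 8.52, 7.91, 7.88, 6.49, 6.21 and 6.26 CPM, a slope of -0.21 ± 0.08 log2 per h (edgeR adjusted p = 0.184). The other 8 members had slopes between -0.10 and 0.12 log2 per h and edgeR adjusted p of at least 0.242.

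Splitting the CPM by the labelled share showed how each pool moved. Labelled Mcl1 was 211, 192, 195, 150, 60.9 and 31.6 CPM in time order, with the first 3 libraries close together and the last 3 lower. Unlabelled Mcl1 was 34.6, 149, 78.7, 288, 342 and 352 CPM, highest in the last 2 libraries. Labelled Bcl2l11 was 23.5, 18.4, 23.8, 11.2, 6.75 and 2.68 CPM, and unlabelled Bcl2l11 was 5.68, 22.1, 9.71, 23.3, 33.6 and 34.7 CPM. Labelled Bax was 64.9, 58.3, 61.7, 57.4, 37.1 and 32.7 CPM while its unlabelled reads stayed between 67.1 and 89.4 CPM. Labelled Bcl2 lay between 1.32 and 2.26 CPM without order.

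**Figure D4:**
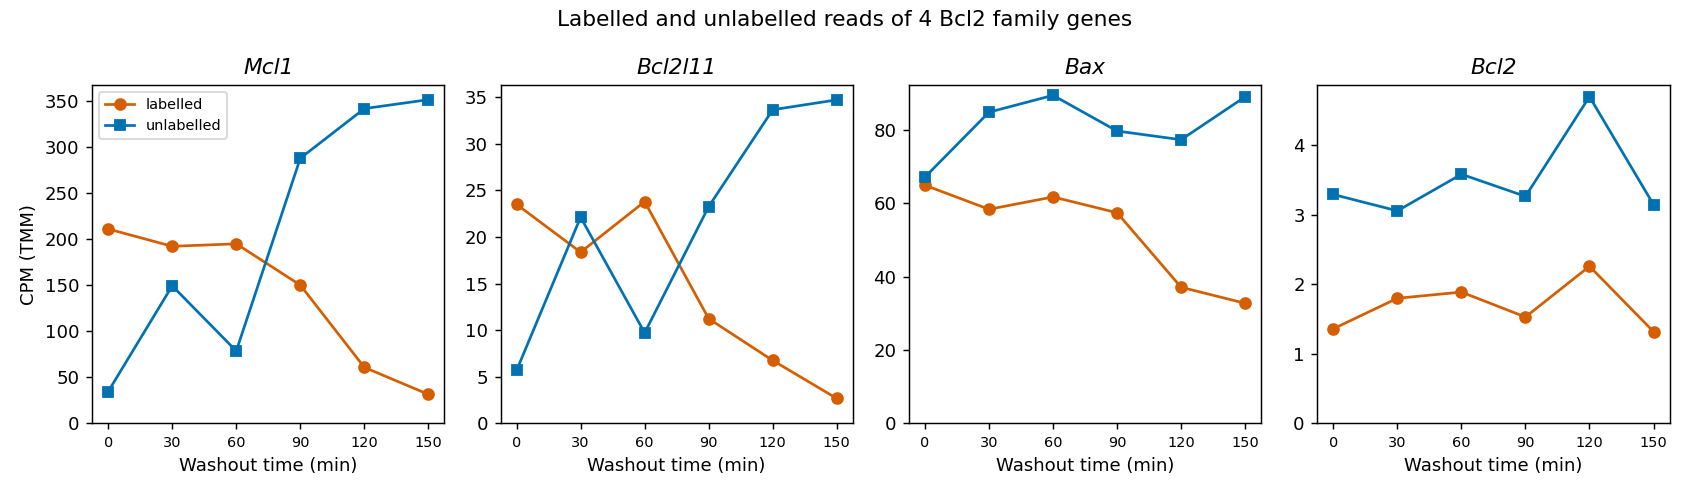
Labelled and unlabelled reads in CPM (vertical axis, TMM-scaled, own scale in each panel) against washout time in min (horizontal axis) for Mcl1, Bcl2l11, Bax and Bcl2, 1 library per point. Labelled Mcl1 drops to 31.6 CPM at 150 min as unlabelled Mcl1 reaches 352 CPM, whereas labelled Bcl2 stays under unlabelled Bcl2 in all 6 libraries.

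AU-rich elements, sequences in 3' untranslated regions (3' UTRs) known to bind proteins that speed or slow mRNA decay in the cytoplasm, were counted in the longest annotated 3' UTR of each member (GENCODE M21, mm10), on the transcript strand only. The core motif was ATTTA and the longer one TATTTAT, which contains it. Mcl1 had 8 ATTTA in 2353 nt, Bcl2l11 6 in 4218 nt and Bcl2 15 in 5086 nt. Among tested genes with 3' UTRs of 0.8 to 1.25 times the same length, the median count was 4, 7 and 9 in that order. Bmf had 1 in 3801 nt (median 6), Bcl2l1 1 in 1477 nt (median 2), Bad 1 in 1026 nt and Bok 1 in 602 nt (median 1 for both). Bid and Bak1 had 0, where 83.6% and 78.3% of genes of like length had at least 1, and Bax had 0 in 224 nt, where 31.1% had at least 1.

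The longer motif occurred in 4 members: 3 times in Mcl1, 2 times each in Bcl2l11 and Bcl2 and 1 time in Bcl2l1. It occurred in 45.1, 59.5, 64.6 and 33.5% of tested genes with 3' UTRs of like length. The sites are shown so that the bases around each match can be read, and a relation of the motif to label loss was not tested. Each line gives 29 bases of transcript sequence, 5' to 3', with the motif in capitals.
Mcl1, chr3:95660882-95660910, plus strand: gaaaacatgtgTATTTATgaaggtggact
Mcl1, chr3:95662578-95662606, plus strand: ttgtacctgtgTATTTATccttgatcata
Mcl1, chr3:95662603-95662631, plus strand: catagtttgctTATTTATgtttaactctt
Bcl2l11, chr2:128161109-128161137, plus strand: tatattttgacTATTTATtagattagaaa
Bcl2l11, chr2:128161343-128161371, plus strand: gagatgttgtaTATTTATtttccgcttat
Bcl2l1, chr2:152780892-152780920, minus strand: aagcgtgtctgTATTTATgtgtgaggagc
Bcl2, chr1:106542995-106543023, minus strand: aaaaaaagattTATTTATttaagacagtt
Bcl2, chr1:106539916-106539944, minus strand: aggcatattctTATTTATtacatctaaga

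A list of 43 other genes joined the intrinsic pathway with regulators of Bcl2 proteins, and 41 were in the table. Of its 34 genes tested, 12 lost label and 1 gained it by limma, beside 52.3% and 1.19% of all genes tested. Their median loss was 0.13 per h, beside 0.25 per h over all genes. Relative to the median gene 6 were faster and 17 slower (25.2% and 36.9% of all genes), calls that were lost, like all others, without the 150 min library. Casp2, an initiator caspase, was the fastest: 4.77% of its reads were labelled at 150 min against 90.5% at 0 min, and the half-life was 37.2 min (limma adjusted p = 5.12e-05). Birc2, which encodes the caspase regulator cIAP1, had 51.4 min and Mdm2, the ubiquitin ligase for p53, 55.01 min. Total Mdm2 ranged from 2310 to 17346 reads with a slope of -0.86 ± 0.21 log2 per h (edgeR adjusted p = 0.0985), whereas its half-life takes the level as constant. The slowest that passed were Birc6 (156 min), Bcl2l13 (160 min) and Diablo (183 min), whose protein frees caspases from their inhibitors.

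Of the 4 BH3-only genes on that list, Bbc3, which encodes PUMA, and Pmaip1, which encodes NOXA, lost label. Both are known p53 targets. The labelled share of Bbc3 was 95.2, 72.3, 84.3, 50.0, 33.0 and 18.4% in time order (half-life 65.6 min at a constant level, limma adjusted p = 0.000135). Its total ranged from 178 to 842 reads with a slope of -0.65 ± 0.14 log2 per h (edgeR adjusted p = 0.0913). The labelled share of Pmaip1 was 89.0, 65.9, 78.7, 49.1, 36.0 and 22.8% (half-life 80.1 min at a constant level, limma adjusted p = 0.00037). Total Pmaip1 ranged from 878 to 2244 reads with a slope of -0.10 ± 0.14 log2 per h (edgeR adjusted p = 0.695). Bik and Hrk had means of 48.2 and 32.5 reads and were not tested. Bnip3, a mitochondrial receptor for mitophagy, was the gene whose labelled share rose, from 1.48% at 0 min to 6.12% at 150 min (limma adjusted p = 0.000284). Its total ranged from 657 to 2119 reads with a slope of -0.40 ± 0.06 log2 per h (edgeR adjusted p = 0.074). The part of that total in the rise of a low share was not tested. The downstream genes Apaf1 (131 min) and Diablo passed, whereas Cycs and Casp9 did not (limma adjusted p of 0.235 and 0.0523).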

How the data were processed

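Nuclear RNA of 6 cultures was sequenced as paired ends of 81 nt from 1 µg RNA each, per the labels' protocols. Reads were aligned with STAR 2.5.2b to mm10, per the submitters' processing notes. The sources used here do not give the program, annotation or strand setting behind the gene table. The deposited table, per the file headers, gives read counts per gene, not normalized, and the labelled fraction as posterior mean, mode and quantiles, set by the authors. Conversions and covered T positions are deposited counts printed with 4 significant digits. Column names carry the time in the sample titles without the ending they share, and a column with no number was read as 0 min. The table's other 30 columns of library values were not used.

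Slopes on time were fitted with limma 3.58.1 on the ln fraction for 11462 genes (mean of 100 reads or more, fraction above 0 in each library), and on the ln T>C rate. Counts were tested with edgeR 4.0.16 (TMM, filterByExpr), with DESeq2 1.42.0 as an alternative (R 4.3.3). P-values were Benjamini-Hochberg adjusted over all genes tested, at a threshold of 0.05, with 4 residual degrees of freedom before moderation. Scripts were tested on simulated data. Gene IDs were matched to GENCODE M21 (23223 of 23281). The members, lists and alternatives were chosen with earlier results of these data known. Named genes were all 10 members, the 3 genes most alike to each of 3 members, and, from the pathway list, its BH3-only genes and the 3 shortest and 3 longest half-lives called. Bnip3, Apaf1, Cycs and Casp9 were named after their values were seen. Depth limits Bok, Bcl2, Bmf and Bad most, with means of 94.2 to 255 reads.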

Additional observations from a re-analysis of the deposited data

How the results depend on the processing

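No paired analysis was possible because the times have 1 library each. The 150 min library decided most. With each library left out in turn, 3594 to 6318 genes lost label, 2643 to 9213 lost conversions (3 to 8 members), 0 to 3195 were faster than the median gene (0 to 5 members) and 0 to 4843 slower (0 to 3 members), the low ends all without the 150 min library. Relative to the median gene, no read minimum gave 3 faster and 1 slower member, and a mean of 300 reads, which removes Bcl2, Bad and Bmf from the fit, gave 1 slower. For total reads, 0 to 635 genes fell and 0 to 778 rose with a library left out. DESeq2 gave 316 lower and 289 higher, no filter 225 and 174, and exchanging the 30 and 60 min times 1294 and 1590, with 1 member higher (Mcl1). The cause was not tested. Slopes that changed sign had not passed in the fit concerned: on the ln share per h, Bcl2 as labelled abundance (0.0181) and with a library left out (-0.103 to 0.0121), and relative to Mcl1 Bcl2l11 (-0.00382 to 0.0991) and Bmf (-0.0116 to 0.448, passing at the upper end); on total reads in log2 per h, Bak1 with times exchanged (-0.0259), with upper quartile scaling (-0.0112) and with a library left out (-0.0192 to 0.0633), Bok with upper quartile scaling (-0.0215) and a library left out (-0.125 to 0.109), and Bcl2 with a library left out (-0.0296 to 0.239). The losses of labelled share of Mcl1, Bcl2l11, Bmf and Bcl2l1 passed under each alternative in which they were fitted. Depth limits Bcl2, Bok and Bmf most, with as few as 82, 75 and 115 reads.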
